A study of Arabidopsis thaliana with 33 samples.

Results

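In Arabidopsis leaves, 15 probe sets had lower log2 values under limiting than under ample nitrogen at both CO2 concentrations and both times of day. They were chosen by their measured nitrogen difference, limiting minus ample group mean, which had to be -0.4 or lower on the log2 scale in each of the 4 CO2 by time conditions. Of 12772 probe sets that are not Affymetrix controls 19 met this rule, and 15 remained after AT1G62480, AT1G12080, AT3G62930 and AT5G19120 were left out by name. The background share that met the rule was 0.149%, and 0.18% (23 probe sets) met its mirror image of 0.4 or higher in each condition. In single conditions the share of all probe sets at -0.4 or lower was 6.41% at elevated midday, 4.81% at elevated midnight, 2.53% at ambient midday and 6.44% at ambient midnight. The nitrogen differences of these 15 members are a description and carry no test.

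Leaf RNA came from Arabidopsis thaliana of the ecotype Col-0 on day 35 after germination, and was hybridised to 33 Affymetrix arrays. Limiting nitrogen was 0.25 mM NH4NO3 and ample nitrogen 6 mM NH4NO3 in the watering solution. Elevated CO2 was 750 ppm and ambient CO2 370 ppm. The youngest leaves to have fully expanded were cut at midday or midnight. At elevated CO2 there were 4 limiting and 3 ample arrays at midday, and 4 limiting and 5 ample arrays at midnight. At ambient CO2 there were 4 limiting and 4 ample arrays at midday, and 4 limiting and 5 ample arrays at midnight. Whether a replicate was its own plant, a pool or a growth chamber is not stated in the labels, and p-values therefore measure the spread between these samples, which may be technical. Values are log2 and relative to each array's own median, and the number of arrays limits their precision. Whole leaves were used, so fewer cells of a type and less RNA per cell cannot be told apart.

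Nitrate and ammonium are the nitrogen sources that a leaf builds into amino acids, and nitrate is also a signal that changes the transcription of many genes within minutes. Plants kept on little nitrogen typically make less chlorophyll, less Rubisco and smaller leaves, and shift the abundance of transporters, redox proteins and transcription regulators. Among the known nitrate-responsive genes of the Arabidopsis shoot is a family of small glutaredoxins of the CC type, which carry a thiol active site and act with transcription factors.

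The annotation given with the platform names 1 gene for 4 of the 15 members and does not list the other 11, which are given here by their probe set number and have no named function. Over the whole table it names 1 gene for 54% of probe sets, against 26.7% of the members. The 4 named members are AT4G15680, AT5G26200, AT1G33170 and AT5G51390. Each of these 4 lay among the dimmest 30% of probe sets. By mean over all arrays they stood at percentiles 12.48, 25.14, 11.62 and 1.97 in turn, so their differences rest on low signal. The same holds for the unnamed members 245912_at, 245688_at and 256818_at, at percentiles 9.28, 27.65 and 3.94. AT4G15680 encodes a CC-type glutaredoxin of the nitrate-responsive family. AT5G26200 encodes a member of the mitochondrial substrate carrier family, which moves metabolites across organelle membranes. AT1G33170 encodes a predicted S-adenosylmethionine-dependent methyltransferase. For AT5G51390 no role is given here. Beyond the rule, then, the members share no named function that these files can show.

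Over the 15 members the median limiting minus ample difference was -0.932 at elevated CO2 and midday, -0.956 at elevated CO2 and midnight, -0.702 at ambient CO2 and midday, and -0.934 at ambient CO2 and midnight. Over all probe sets the medians were -0.005, -0.022, 0.009 and -0.016 in the same conditions. The condition with the smallest difference was ambient midday for 7 of the 15 members. The plot of nitrogen differences shows that the members did not share one pattern over the 4 conditions. The members 252011_at, 264100_at, 252220_at, 245912_at and AT5G51390 had the most even differences, with a range over conditions of 0.252, 0.218, 0.29, 0.276 and 0.241. AT4G15680 and AT5G26200 spread over 1.33 and 1.17 log2 units, both with the larger differences at midnight. By contrast 256601_s_at, 262312_at, 253203_at and 245688_at had their largest differences at midday under elevated CO2 (-1.67, -1.43, -1.24 and -0.935).

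**Figure D1:**
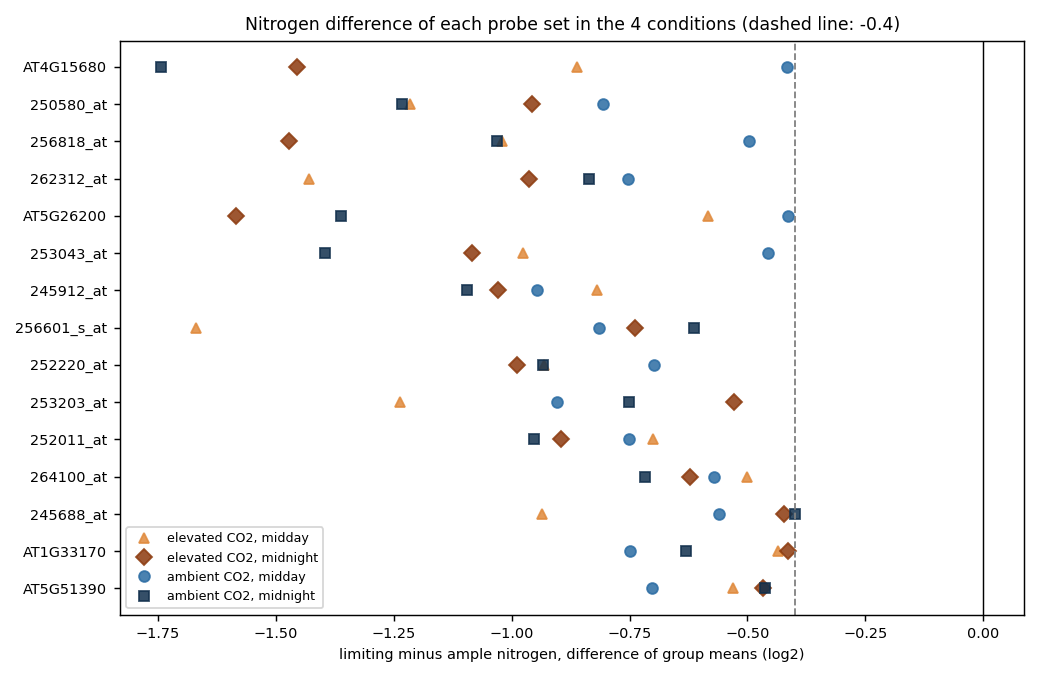
Limiting minus ample difference of group means (log2, x axis) for each of the 15 probe sets (rows), with 1 symbol for each CO2 by time condition. All points lie at or left of the dashed line at -0.4 because the rule chose them so. The widest row is AT4G15680, from -1.74 at ambient midnight to -0.417 at ambient midday.

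The glutaredoxin AT4G15680 had the most negative mean nitrogen difference, -1.12 or 2.17-fold lower under limiting nitrogen, and also the widest array spread. At elevated CO2 and midnight its values were -1.875, -2.588, -2.749 and -1.768 under limiting nitrogen, against 1.005, -1.373, -0.116, -1.277 and -2.182 under ample nitrogen. At ambient CO2 and midnight they were -3.354, -3.008, -1.907 and -5.077 under limiting nitrogen, against 0.771, -2.939, -2.766, -1.382 and -1.65 under ample nitrogen. In each of these comparisons the lowest ample array lay below the highest limiting array (-2.182 against -1.768 at elevated CO2, and -2.939 against -1.907 at ambient CO2).

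At midday AT4G15680 averaged -2 ± 0.934 (SD, n = 4) under limiting and -1.14 ± 1.28 (SD, n = 3) under ample nitrogen at elevated CO2. At ambient CO2 it averaged -1.35 ± 0.796 (SD, n = 4) under limiting and -0.933 ± 1.43 (SD, n = 4) under ample nitrogen. The limiting and ample arrays overlapped in all 4 conditions, and the ambient midday difference of -0.417 ran from -1.08 to -0.051 when 1 array was left out. This difference is smaller than the spread between replicates.

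AT4G15680 lies among neighbouring glutaredoxin genes that are close copies of one another, so a probe set of one may bind the transcript of another. Such binding was not tested here. Of these neighbours, 3 (AT4G15660, AT4G15690 and AT4G15700) were measured and did not meet the rule. AT4G15690 was lower under limiting nitrogen at midnight, by a log2 difference of -1.42 at elevated and -1.32 at ambient CO2, but had -0.099 and 0.567 at midday. AT4G15660 and AT4G15700 likewise had their most negative value at elevated CO2 and midnight (-0.742 and -0.969) and lay above 0 at ambient midday (0.27 and 0.458). Averaged over conditions none of the 3 passed limma's test for nitrogen (adjusted p = 0.388 for AT4G15690, 0.551 for AT4G15700 and 0.634 for AT4G15660). Their replicates also spread widely, with a pooled SD within groups of 0.887, 0.706 and 0.793 in turn. These neighbours were picked for their kinship with AT4G15680 and not by a rule.

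The mitochondrial carrier gene AT5G26200 was 1.98-fold lower under limiting nitrogen on average, and its difference was concentrated at midnight. At elevated CO2 and midnight its values were -1.313, -1.074, -2.501 and -2.115 under limiting nitrogen, against 0.493, -0.236, -0.063, -0.637 and -0.388 under ample nitrogen. At ambient CO2 and midnight they were -1.287, -1.721, -1.342 and -1.169 under limiting nitrogen, against 0.121, 0.428, -0.952, 0.272 and 0.036 under ample nitrogen. Every limiting array lay below every ample array at midnight, at both CO2 levels.

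At midday the 2 nitrogen supplies lay closer for AT5G26200. Under elevated CO2 the limiting arrays gave -2.399, -1.372, -1.923 and -1.374, and the ample arrays -1.049, -1.131 and -1.374, so that the groups overlapped by 1 array. Under ambient CO2 the limiting arrays gave -1.172, -1.47, -1.298 and -1.483, all just below the ample arrays at -1.021, -0.729, -1.145 and -0.868. The limiting means stayed at -1.77 and -1.75 at elevated midday and midnight and at -1.36 and -1.38 at ambient midday and midnight. The ample means were -1.19 at elevated midday and -0.166 at elevated midnight, and -0.941 at ambient midday and -0.019 at ambient midnight. The midday minus midnight difference was thus -1.02 and -0.922 with ample nitrogen at elevated and ambient CO2, against -0.016 and 0.024 with limiting nitrogen. That contrast between supplies follows from the nitrogen differences the rule used and was not tested.

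AT1G33170, the predicted methyltransferase, was 1.47-fold lower under limiting nitrogen on average. At elevated CO2 and midday its values were -1.652, -1.806, -1.639 and -1.615 under limiting nitrogen, against -1.114, -1.45 and -1.162 under ample nitrogen. At ambient CO2 and midday they were -0.982, -1.167, -0.702 and -1.62 under limiting nitrogen, against -0.314, -0.336, -0.479 and -0.347 under ample nitrogen. The groups did not overlap at midday.

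At midnight the groups of AT1G33170 did overlap. The limiting arrays were at -2.673, -2.295, -2.905 and -3.458 and the ample arrays at -2.674, -2.021, -2.573, -2.688 and -2.131 at elevated CO2. At ambient CO2 the limiting arrays were at -2.459, -1.967, -1.851 and -2.555, and the ample arrays at -2.036, -1.853, -1.736, -1.431 and -0.829. The elevated midnight difference of -0.415 was -0.207 without elevated limiting midnight replicate 1. AT1G33170 did not meet the rule without any of 7 of the 33 arrays, 3 at elevated midday and 4 at elevated midnight.

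AT5G51390 had the smallest mean difference of the 15, 1.45-fold lower under limiting nitrogen, and values far below the array median. At ambient CO2 and midday its limiting arrays lay between -3.77 and -2.94 and its ample arrays between -2.72 and -2.48, without overlap. In the other 3 conditions they overlapped. At elevated CO2 and midday the limiting arrays were at -3.168, -3.541, -3.261 and -3.891 and the ample arrays at -4.538, -2.643 and -1.625, and the difference of -0.53 became 0.125 without elevated ample midday replicate 3. AT5G51390 did not meet the rule without any of 9 of the 33 arrays, that one among them. They lay in all 3 conditions with overlap, with 3 arrays in each.

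**Figure D2:**
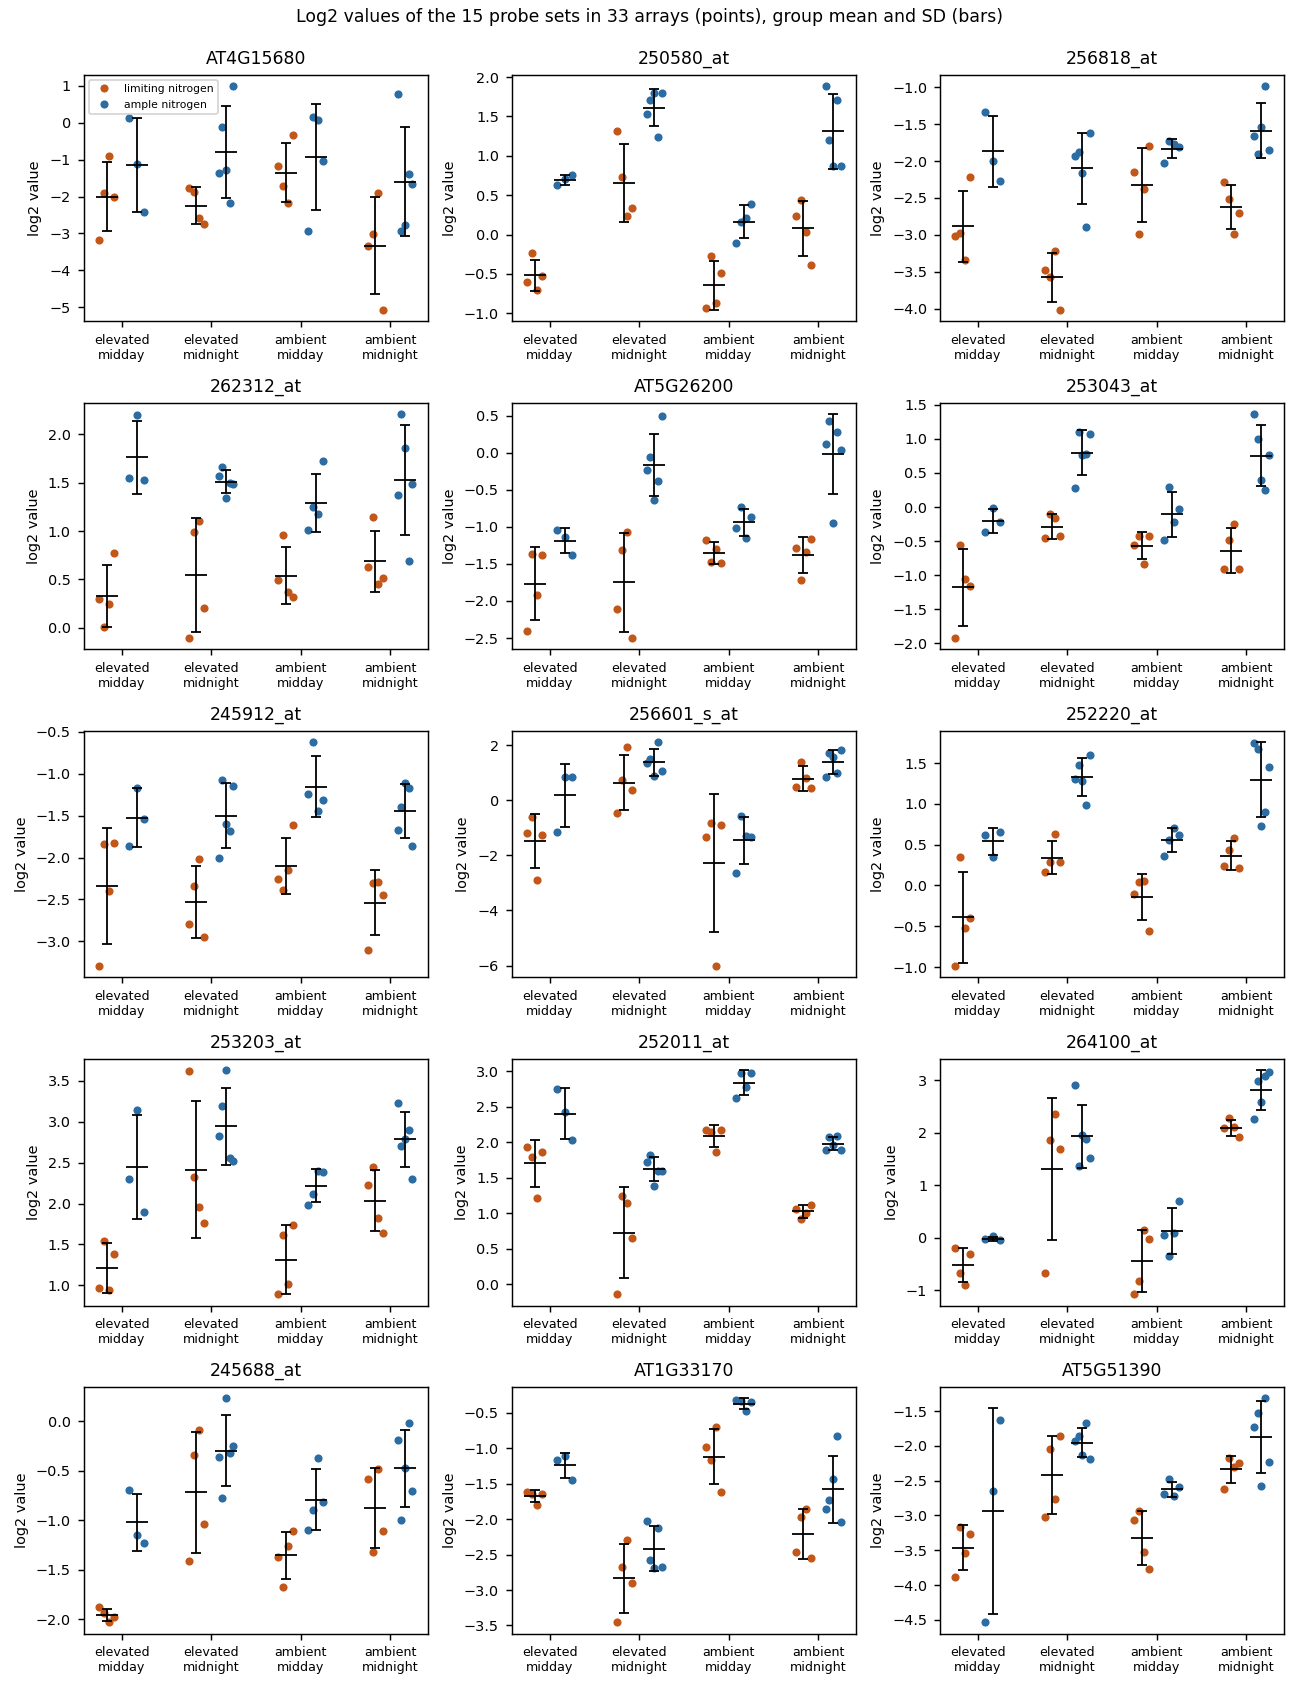
Log2 value relative to the array median (y axis) in each of the 33 arrays (points) for the 15 probe sets (panels), by CO2 and time, with limiting nitrogen in orange left of ample nitrogen in blue. Bars show the group mean and SD (n = 3 to 5). In 252011_at every limiting array lies below every ample array of its condition, while in AT4G15680 and 256601_s_at the groups overlap throughout.

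Among the 11 unnamed members, 252011_at had the cleanest separation. Its limiting and ample means were 1.7 ± 0.326 (SD, n = 4) and 2.4 ± 0.363 (SD, n = 3) at elevated midday, 0.729 ± 0.635 (SD, n = 4) and 1.62 ± 0.164 (SD, n = 5) at elevated midnight, 2.09 ± 0.154 (SD, n = 4) and 2.84 ± 0.176 (SD, n = 4) at ambient midday, and 1.03 ± 0.088 (SD, n = 4) and 1.98 ± 0.095 (SD, n = 5) at ambient midnight. It was the single probe set of the whole table with every limiting array below every ample array in all 4 conditions, and 2 probe sets had every limiting array above every ample array in all 4. Its differences of -0.701, -0.896, -0.751 and -0.953 were also among the most even.

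There were 6 members that had no overlap in 3 of the 4 conditions: 250580_at, 262312_at, AT5G26200, 253043_at, 245912_at and 252220_at. In single conditions 8 of the 15 members had no overlap at elevated midday, 7 at elevated midnight, 10 at ambient midday and 7 at ambient midnight. The share of all probe sets with every limiting array below every ample array was 3.01%, 2%, 2.51% and 1.53% in the same conditions. Since the rule used this contrast, nothing is read from the difference between these shares.

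Of these, 250580_at averaged -0.519 ± 0.202 (SD, n = 4) under limiting and 0.696 ± 0.066 (SD, n = 3) under ample nitrogen at elevated midday. At ambient midnight it averaged 0.077 ± 0.351 (SD, n = 4) and 1.31 ± 0.472 (SD, n = 5) under limiting and ample nitrogen. 253043_at was -0.64 ± 0.326 (SD, n = 4) under limiting and 0.756 ± 0.453 (SD, n = 5) under ample nitrogen at ambient midnight, its largest difference. The limiting arrays of 253043_at lay between -1.92 and -0.103 at elevated CO2, against -0.366 to 1.1 for the ample arrays.

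For 262312_at the limiting arrays at elevated midday lay between 0.011 and 0.773 and the ample arrays between 1.53 and 2.2, a mean difference of -1.43. For 245912_at the 4 differences were -0.819 and -1.03 at elevated midday and midnight and -0.946 and -1.09 at ambient midday and midnight. For 252220_at they were -0.932 and -0.988 at elevated midday and midnight and -0.698 and -0.934 at ambient midday and midnight. These last 3 probe sets met the threshold whichever single array was left out, as did 250580_at and 252011_at. The other 10 members missed it without at least 1 array.

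256818_at had its largest difference, -1.47, at elevated midnight, where the limiting arrays lay between -4.02 and -3.22 and the ample arrays between -2.9 and -1.62. 253203_at lay above the array median in all arrays, between 0.89 and 3.62 under limiting and between 1.9 and 3.63 under ample nitrogen. One elevated limiting midnight array of 253203_at, replicate 1, reached 3.62 among values of 1.76 to 2.32 in the rest of its group.

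264100_at had means of -0.517 and -0.017 under limiting and ample nitrogen at elevated midday, 1.31 and 1.93 at elevated midnight, -0.446 and 0.125 at ambient midday, and 2.1 and 2.82 at ambient midnight. Its elevated midnight difference of -0.622 was 0.038 without elevated limiting midnight replicate 1, which lay at -0.672 among values of 1.7 to 2.35. 245688_at stood at the edge of the rule, with -0.4001 at ambient midnight and -0.935 at elevated midday.

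256601_s_at belongs to a probe set type that may bind several related transcripts, and its array spread was wide (pooled SD 1.13). Its ambient midday difference of -0.815 rested on 1 array, limiting replicate 3 at -6.02, and was 0.434 without it. The remaining limiting arrays of that group lay at -1.335, -0.823 and -0.914, against -2.632, -0.572, -1.308 and -1.321 for the ample arrays.

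Just inside the threshold in their weakest condition were 245688_at (-0.4001), AT5G26200 (-0.415) and AT1G33170 (-0.4154). Just outside were 259383_at (-0.3906), 250054_at (-0.3847) and 261806_at (-0.3728), none of which the annotation names. The gap between the members and the next probe sets was therefore small.

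The CO2 comparison asks what growth at elevated CO2 did to the same genes, and the rule did not use it. Averaged over nitrogen and time, AT1G33170, 256818_at and 252011_at fell at elevated CO2, and 250580_at rose. That is 4 of 15 members called by limma at an adjusted p under 0.05, against 21.3% of all probe sets (12.9% lower and 8.46% higher), so the share of members called is near the background. The median CO2 difference of the members was -0.124, with 10 below 0 and 5 above, beside -0.035 over all probe sets. Of all probe sets 43.1% lay above 0.

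AT1G33170 averaged -2.04 at elevated and -1.32 at ambient CO2, a log2 difference of -0.724 (SE 0.116, limma adjusted p = 0.000474). It was lower at elevated CO2 in all 4 conditions, by differences of -0.873 and -0.84 at ample midday and midnight and of -0.56 and -0.625 at limiting midday and midnight. The elevated and ambient arrays did not overlap at ample midday, where the elevated arrays lay between -1.45 and -1.11 and the ambient arrays between -0.479 and -0.314. In the other 3 conditions they overlapped.

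256818_at averaged -2.61 at elevated and -2.09 at ambient CO2 (log2 difference -0.514, SE 0.134, limma adjusted p = 0.00782). Its difference was -0.036 and -0.51 at ample midday and midnight, and -0.559 and -0.952 at limiting midday and midnight. 252011_at averaged 1.61 at elevated and 1.98 at ambient CO2 (log2 difference -0.369, SE 0.101, limma adjusted p = 0.0106), with single-condition differences between -0.437 and -0.299. 250580_at averaged 0.612 at elevated and 0.226 at ambient CO2 (log2 difference 0.385, SE 0.113, limma adjusted p = 0.016), and was higher in all 4 conditions, by 0.125 to 0.58.

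Of these 4, AT1G33170, 256818_at and 252011_at were lower both under limiting nitrogen and at elevated CO2, while 250580_at was lower under limiting nitrogen and higher at elevated CO2. The mitochondrial carrier gene AT5G26200 had a CO2 difference of -0.293 (SE 0.139, limma adjusted p = 0.13), below 0 in all 4 conditions. AT4G15680 had one of 0.26 (SE 0.379, limma adjusted p = 0.662) and AT5G51390 one of -0.154 (SE 0.179, limma adjusted p = 0.57). In all, 6 members lay lower at elevated CO2 in all 4 conditions and 1 lay higher in all 4, while 8 had mixed signs. The share of all probe sets with the same sign in all 4 was not computed, so nothing is read from these counts. Elevated and ambient arrays did not overlap for 2 members at ample midday (AT1G33170 and 250580_at), and for 1 each at ample midnight (252011_at), limiting midday (245688_at) and limiting midnight (256818_at), against 13.7%, 2.09%, 9.25% and 9.4% of all probe sets.

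At midday alone limma called AT1G33170 (log2 difference -0.716, SE 0.172, adjusted p = 0.0327), 1 of 15 members against 1.34% of all probe sets (0.274% lower and 1.06% higher). Those 171 calls over all probe sets became 0 without elevated ample midday replicate 3, 48 to 108 without any of 9 other single midday arrays, and up to 327 without elevated limiting midday replicate 4. The call was lost without any of 8 midday arrays (adjusted p up to 0.163), namely elevated ample replicates 2 and 3, elevated limiting replicate 3, ambient ample replicates 1, 2 and 4, and ambient limiting replicates 1 and 3, and the difference then lay between -0.748 and -0.647. At midnight alone 3 of 15 members fell, against 13.4% of all probe sets called (8.24% lower and 5.14% higher). Those 1709 calls became 291 without elevated limiting midnight replicate 1, and between 1054 and 2344 without any other single array. These were AT1G33170 (-0.733, SE 0.156, limma adjusted p = 0.00755), 256818_at (-0.731, SE 0.181, limma adjusted p = 0.0132) and 264100_at (-0.838, SE 0.27, limma adjusted p = 0.0389). The call of 264100_at was lost without any of 10 midnight arrays (adjusted p 0.0534 to 0.131). Its difference was -0.508 without elevated limiting midnight replicate 1 and lay between -0.869 and -0.769 without elevated ample replicate 2, 3 or 5, ambient ample replicate 4 or 5, or any ambient limiting replicate. Without elevated limiting midnight replicate 3 there were 5 members called at midnight. The calls over all probe sets then rose as well, from 1709 to 2344, so nothing is read from the higher count of members.

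The CO2 by time interaction, midday minus midnight difference in the CO2 effect, called 0 of 15 members and 0% of all probe sets with limma. At an unadjusted p under 0.05 there were 2 members, 245688_at (-0.586, SE 0.248) and 253043_at (-0.548, SE 0.239), and 5.44% of all probe sets. AT4G15680 had an interaction of -1.38 with an SE of 0.758 (limma adjusted p = 0.91), so a difference of that size was not detectable for it with these arrays.

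**Figure D3:**
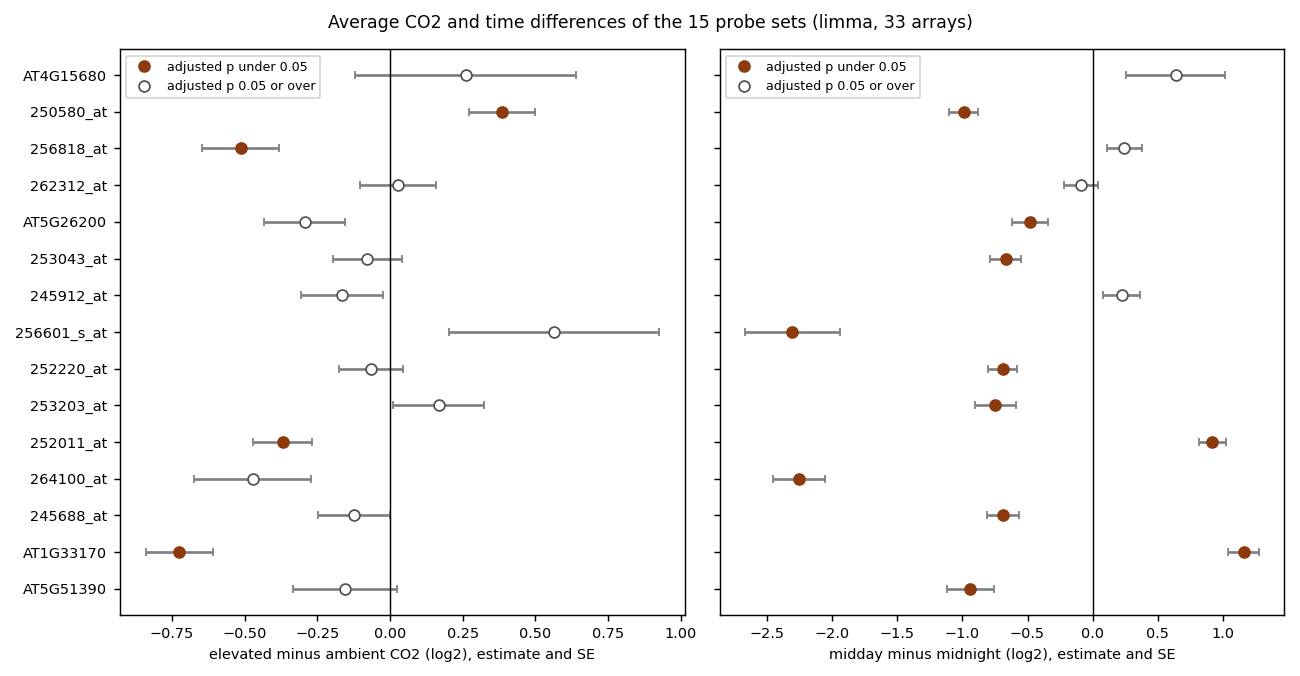
Elevated minus ambient CO2 (left) and midday minus midnight (right), log2 estimate with its SE from limma on 33 arrays, for the 15 probe sets (rows). Filled points have an adjusted p under 0.05. The 4 filled points on the left are AT1G33170, 256818_at and 252011_at below 0 and 250580_at above it, and on the right 9 filled points lie below 0 and 2 above.

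More members were called for time of day than for CO2, as were more probe sets of the whole table. Averaged over CO2 and nitrogen, 9 members fell and 2 rose at midday relative to midnight, 11 of 15 against 64.5% of all probe sets called (31.1% lower and 33.4% higher). The median midday minus midnight difference of the members was -0.669, beside 0.024 over all probe sets. Of the 37 probe sets for control RNAs added in the laboratory, 18 also differed between midday and midnight arrays, 14 of them higher at midday (permutation test, 100000 resamples, adjusted p under 0.05). The part of that difference in the time effects was not tested. For limiting against ample nitrogen and for elevated against ambient CO2 the same test called 0 of 37, with lowest adjusted p = 0.832 and 0.234.

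The largest falls at midday were those of 256601_s_at, which averaged -1.26 at midday and 1.04 at midnight (log2 difference -2.3, SE 0.362, limma adjusted p = 2.04e-06), and 264100_at, which averaged -0.214 at midday and 2.04 at midnight (log2 difference -2.25, SE 0.201, limma adjusted p = 3.26e-11). For 256601_s_at the midday arrays lay below the midnight arrays in all 4 CO2 by nitrogen conditions. For 264100_at they did so in 3, and overlapped at elevated CO2 and limiting nitrogen.

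AT5G51390 fell too, with -3.09 at midday and -2.15 at midnight (log2 difference -0.94, SE 0.179, limma adjusted p = 3.47e-05), as did AT5G26200, with -1.31 at midday and -0.829 at midnight (log2 difference -0.483, SE 0.139, limma adjusted p = 0.00319). For AT5G26200 the time difference lay in the ample groups, as given above. The other called falls were those of 250580_at (-0.99), 253203_at (-0.747), 252220_at (-0.691), 245688_at (-0.69) and 253043_at (-0.669), with limma adjusted p of 0.000116 or lower.

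AT1G33170 and 252011_at rose at midday. AT1G33170 averaged -1.1 at midday and -2.26 at midnight (log2 difference 1.16, SE 0.116, limma adjusted p = 4.36e-10), and its 4 differences were nearly equal, between 1.09 and 1.21, with no overlap of midday and midnight arrays in any condition. 252011_at averaged 2.26 at midday and 1.34 at midnight (log2 difference 0.918, SE 0.101, limma adjusted p = 2.9e-09). AT1G33170 and 252011_at were therefore lower under limiting nitrogen, lower at elevated CO2 and higher at midday. The glutaredoxin AT4G15680 had a midday minus midnight difference of 0.635 (SE 0.379, limma adjusted p = 0.143).

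Over the conditions 7 members lay lower and 2 higher at midday in all 4, and 6 had mixed signs. For time too the share of all probe sets with the same sign in all 4 was not computed, and nothing is read from these counts. Midday and midnight arrays did not overlap for 8 members at elevated CO2 with ample nitrogen, 7 at elevated CO2 with limiting nitrogen, 6 at ambient CO2 with ample nitrogen and 6 at ambient CO2 with limiting nitrogen, against 35.8%, 30.5%, 28.6% and 40.7% of all probe sets. With all arrays pooled, 0 of 15 were without overlap, against 8.27% of all probe sets. The members without a call for time were AT4G15680, 245912_at, 256818_at and 262312_at. The last had the smallest difference, -0.088 (SE 0.131, limma adjusted p = 0.569).

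The members varied more between replicate arrays than most probe sets. Their pooled within-group SD had a median of 0.402 and ran from 0.291 (252011_at) to 1.18 (AT4G15680), beside a median of 0.279 over all probe sets, and all 15 lay above that median. The rule used group means and took no account of spread, and 7 of the 15 lay among the dimmest 30% of probe sets. The part of the rule and of low signal in this spread was not tested. By group, the median SD of the members was widest at elevated limiting midnight (0.562, beside 0.253 over all probe sets) and narrowest at ambient ample midday (0.209, beside 0.181).

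Arrays of one group could lie high or low for most members at once. At elevated limiting midnight, replicates 1 and 4 had a median deviation from the group mean of -0.364 and -0.316 over the members, against 0.186 and 0.424 for replicates 2 and 3. In replicate 4, 2 of the 15 members lay above the group mean, and in replicate 2 there were 12. At ambient ample midday, replicate 1 had 1 of 15 above it. The median deviation over all probe sets in these 5 arrays lay between -0.06 and 0.048. The lowest, -0.06, was that of elevated limiting midnight replicate 1. Over all probe sets the deviations of that array had an SD of 0.447, against 0.223 to 0.328 in the rest of its group.

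**Figure D4:**
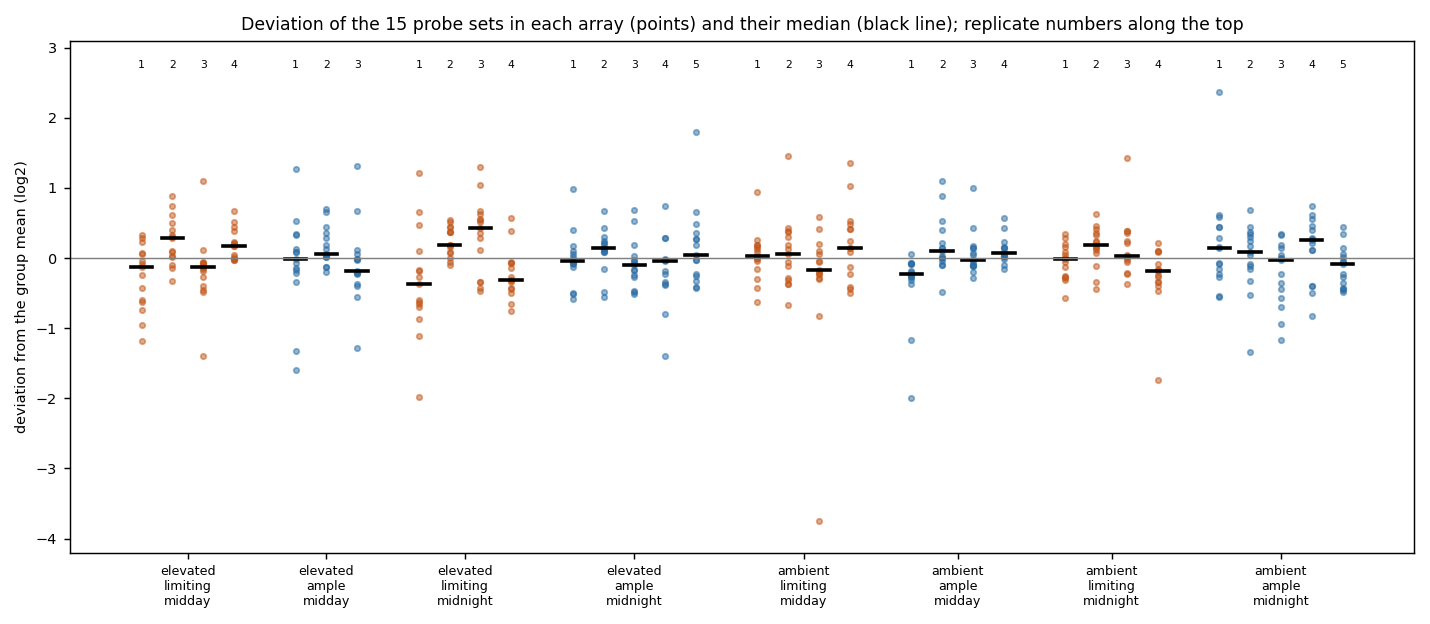
Deviation of each of the 15 probe sets from its group mean (log2, y axis) in each of the 33 arrays (columns, by group, with replicate numbers along the top), limiting nitrogen in orange and ample nitrogen in blue. Black lines mark the median over the 15. The medians run from -0.364 to 0.424, both at elevated limiting midnight, and the lowest point is 256601_s_at in ambient limiting midday replicate 3.

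One array stood apart in RNA quality. In ambient ample midnight replicate 4 the 3' probe sets of control transcripts exceeded the 5' ones by 4.41 log2 units, averaged over 6 pairs, while all others lay between 1.46 and 2.35. Without it 14 probe sets met the rule, 13 of them among the 15, and the ambient midnight difference of 245688_at was -0.286 and that of AT5G51390 -0.322. By group this excess lay between 1.46 and 1.88 under limiting and 1.75 and 1.92 under ample nitrogen at elevated midday, between 1.72 and 2 and between 1.86 and 2.27 at elevated midnight, between 1.8 and 1.89 and between 1.47 and 1.94 at ambient midday, and between 1.78 and 2.32 under limiting nitrogen at ambient midnight. The part of RNA quality in the nitrogen differences was not tested beyond leaving out that array. Of the markers listed for mesophyll, epidermis, guard cell, phloem, bundle sheath, root and flower cells only FMA, a guard cell regulator, is named in the annotation. FMA lay at -1.82 under limiting and -2.03 under ample nitrogen (limma adjusted p = 0.42). As a check of the labelled leaf tissue, the photosystem genes PSAE-1 and LHCB4.1 lay far above the array median, PSAE-1 at 5.66 under limiting and 5.75 under ample nitrogen and LHCB4.1 at 5.7 under limiting and 5.87 under ample nitrogen.

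Other genes of nitrogen nutrition and of linked pathways were looked up in 9 lists. The annotation covers 15 of their 142 genes. None of the nitrate assimilation or circadian clock genes is among them. Averaged over CO2 and time, 2 of the 15 fell and 1 rose under limiting nitrogen, against 1.41% of all probe sets called (0.83% lower and 0.579% higher), and without single arrays the calls numbered 1 to 4. The lists were chosen with earlier results of these data known, so nothing is read from the difference between these shares. NPF6.2 (AT2G26690), a nitrate transporter of the petiole, fell from the transport list, with 1.56 under limiting and 1.97 under ample nitrogen (log2 difference -0.405, SE 0.099, limma adjusted p = 0.0289). The call of NPF6.2 was lost without any of 10 single arrays (limma adjusted p 0.0505 to 0.0738), with differences of -0.392 to -0.371. Of 4 measured light-reaction genes 1 fell, PSAN of photosystem I, with 4.91 under limiting and 5.24 under ample nitrogen (log2 difference -0.332, SE 0.066, limma adjusted p = 0.00591). PSAN kept its call without each single array, with an adjusted p of at most 0.0183.

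CEPD1 (AT1G06830), the single measured gene of the nitrate signalling list, rose under limiting nitrogen, with 1.46 under limiting and 0.899 under ample nitrogen (log2 difference 0.562, SE 0.14, limma adjusted p = 0.0314). Its call was lost without any of 9 single arrays (limma adjusted p 0.0506 to 0.0746) and with a replicate block (adjusted p = 0.0771). CEPD1 is a small glutaredoxin-like protein that travels in the phloem as a signal of nitrogen demand. None of these 3 is a member. Of the 15 listed genes 13 had differences below 0, and all 3 measured cold-response genes were among them. COR15A had -0.292 (limma adjusted p = 0.482) and COR47 -0.493 (limma adjusted p = 0.443). COR15B, which encodes a chloroplast cold-protection protein, had -0.644 (SE 0.174, limma adjusted p = 0.0549). COR15B was thus not called in the main fit. Without single arrays its limma adjusted p ran from 0.0124 to 0.134, with a call for 7 of the 33 arrays left out. It was also called with array weights (adjusted p = 0.00567) and without the dimmest 30% of probe sets (adjusted p = 0.0422). The 2 cytokinin genes ARR15 and RR16 had -0.025 and -0.026, and the 2 measured sugar-starvation genes a median of -0.124. The 2 glucosinolate genes, BCAT4 and UGT74B1, had -0.139 and 0.043.

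The genes outside the rule whose 8 group means ran most like the median profile of the members were FHIT (Pearson r = 0.954 over 8 groups), AT4G25890 (r = 0.94), AT1G16740 (r = 0.939), AT5G16660 (r = 0.935) and AT5G28060 (r = 0.931). Their own nitrogen differences were smaller, between -0.511 and -0.078. The points share their arrays, and the profile reflects the rule, so these coefficients are a description only.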

How the data were processed

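Leaf RNA from 33 samples was labelled with biotin by a 3' IVT kit and hybridised to Affymetrix arrays, per the labels' protocols. The authors deposited log2 values, and each array's median is 0, so that a shift common to most genes is not visible. How probes were summarised, corrected and filtered is not stated in the labels or headers.

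Groups came from the sample titles. The rule was applied to group means of 12772 probe sets, without 54 Affymetrix controls. Names came from the platform annotation, with symbols updated through gene identifiers of a TAIR10.1 table: 6898 probe sets name 1 gene, 272 several, and 5602 are not listed. For a listed gene with several probe sets, the one with the highest mean was used.

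Group means of all 33 arrays were fitted with limma 3.58.1 (R 4.3.3). Benjamini-Hochberg adjustment ran over all 12772 probe sets in each contrast, and an adjusted p under 0.05 is a call. The fit was tested on simulated data. Control RNAs were compared by permutation (scipy 1.17.1, Python 3.11.15). Members and gene lists were chosen with earlier results of these data known. By the naming rule, members with a gene name, called members and listed genes with a call are named, and which unnamed members to describe further was chosen after their values were seen. Alternatives covered thresholds, medians, quantile normalization, dim probe sets, eBayes options, array weights, a replicate block and single arrays. Sequences and coordinates were not used here.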

Additional observations from a re-analysis of the deposited data

Results flagged for a closer look

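Of 105 member by group combinations with 4 or 5 arrays, 3 had an array far from the rest by Dixon's criterion at the 95% level, which chance gives in about 1 in 20 groups. AT5G26200 lay at -0.952 in ambient ample midnight replicate 3, against 0.036 to 0.428 in the other arrays of that group. 256601_s_at lay at -6.022 in ambient limiting midday replicate 3, against -1.335 to -0.823. 252011_at lay at 1.859 in the same array, against 2.142 to 2.18, a gap of small size in a group with little spread.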

How the results depend on the processing

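The number of members, 15, was 38 with a threshold of -0.3, 8 with -0.5 and 4 when only probe sets that name 1 gene were kept. It was 15 with group medians (10 of the original 15), 13 after quantile normalization (all among the 15), and between 12 and 18 without single arrays, the lowest without elevated limiting midnight replicate 1. Leaving out the dimmest 30% of probe sets removes 7 of the 15 members from the test, AT1G33170 and 256818_at among them. Of the 8 that remain, 2 were called for the average CO2 effect, 0 for CO2 at midday and 7 for time. Over all remaining probe sets the calls were 2288, 159 and 6120 in turn, against 2725, 171 and 8243 before. Without single arrays the calls were 4 to 5 for the average CO2 effect, 0 to 1 at midday, 2 to 5 at midnight, 11 to 12 for time and 0 for the CO2 by time interaction. For the listed genes, 3 nitrogen calls became 1 to 4, with 1 without ambient limiting midnight replicate 3, elevated limiting midday replicate 1, elevated ample midday replicate 1 or 2, ambient limiting midday replicate 2 or ambient ample midday replicate 4. NPF6.2 lost its call without elevated limiting midday replicate 1 or 3, elevated limiting midnight replicate 1 or 4, elevated ample midday replicate 1 or 2, ambient limiting midday replicate 2, ambient limiting midnight replicate 1 or 3, or ambient ample midday replicate 4. CEPD1 lost its call without elevated limiting midday replicate 1, elevated limiting midnight replicate 1, elevated ample midday replicate 1 or 2, ambient limiting midday replicate 2 or 3, ambient limiting midnight replicate 3 or 4, or ambient ample midday replicate 4. The other settings tried kept each of these counts of calls within 1.5 times. Over all probe sets, limma's 171 calls for CO2 at midday were 793 with array weights, 331 with the midday arrays alone, 322 without the array of high 3' excess and 99 with a replicate block, the 1709 at midnight were 794 with array weights and 412 with the midnight arrays alone, and the 180 for nitrogen were 805 with array weights. Without single arrays the midday calls were 0 to 327, the midnight calls 291 to 2344, the nitrogen calls 104 to 325 (104, 118 and 325 without elevated ample midday replicates 1, 2 and 3 in turn), the average CO2 calls 1871 to 3113, the time calls 7999 to 8588 and the interaction calls 0 to 1. Midday calls moved over 1.5 times without 13 arrays, which were elevated ample midday replicates 2 and 3, elevated limiting midday replicates 3 and 4, all 4 ambient ample midday arrays, ambient limiting midday replicates 1, 3 and 4, elevated limiting midnight replicate 1 and ambient ample midnight replicate 4. Midnight calls did so without 5, which were elevated limiting replicate 1, elevated ample replicates 2 and 3 and ambient limiting replicates 1 and 4. The midnight CO2 call of 264100_at was lost with array weights (adjusted p = 0.127) and with the midnight arrays alone (adjusted p = 0.1). With a replicate block 4, 1, 3, 11 and 0 members were called for the average, midday and midnight CO2 effects, time and the interaction. For nitrogen 2 listed genes were called. Over all probe sets the calls with that block were 2428, 99, 1619, 8093 and 0 in turn, and 160 for nitrogen. Whether replicate numbers pair the samples is not stated in the labels, and the main fit did not pair them. Same-numbered arrays of compared groups had a mean correlation of deviations of -0.017 over 46 pairs, 11 of them over 0.1. For arrays with different numbers it was 0.006 over 158 pairs, 31 of them over 0.1. No called effect and no mean nitrogen difference of a member changed sign under any alternative, though differences in single conditions did, as given above.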
